A study of Mus musculus with 9 samples.

Results

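The 9 mature microRNAs described here come from the miR-17-92 and miR-106b-25 clusters and were chosen by name: mmu-miR-17-5p, mmu-miR-17-3p, mmu-miR-18a-5p, mmu-miR-19a-3p, mmu-miR-19b-3p, mmu-miR-20a-5p, mmu-miR-93-5p, mmu-miR-106b-5p and mmu-miR-106b-3p. The prefix mmu, for mouse, is left out from here on. They are 9 of the 1915 mature names in the count table, of which 828 had at least 1 count. All 9 were detected in every library and all 9 passed the filter on low counts, as did 312 names in all. Their read counts were followed across small RNA libraries from mouse milk fat.

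A pair of diets was compared in first-litter ICR (CD1) dams, an outbred stock, with 4 dams on a high-fat diet and 5 on a control diet. The high-fat diet drew 60% of its energy from fat and held 5.24 kcal per gram. The control diet drew 10% from fat and held 3.85 kcal per gram, and in both diets sucrose gave 7% of the energy. Feeding began at 4 weeks of age, ran for 4 weeks before mating and went on through pregnancy and lactation. Milk was taken on lactation day 10 and its fat layer was washed, so each library is the milk fat of 1 dam and not mammary tissue. Fewer cells of a type and less RNA per cell cannot be told apart in such bulk samples.

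MicroRNAs are short RNAs that guide repression of messenger RNAs, mainly through pairing of the seed, bases 2 to 8 of the mature strand. Both arms of a hairpin can be kept, but usually the guide arm is loaded and the passenger arm is degraded. The miR-17-92 cluster is one transcript that carries several seeds, and its miRNAs favour cell cycle entry and survival. The miR-17 seed is known to repress the cell cycle inhibitor Cdkn1a and members of the E2f family, and miR-18a to repress connective tissue growth factor. Secretory epithelial cells of the lactating gland release fat droplets wrapped in plasma membrane, and slips of cytoplasm with their RNA can be enclosed with the droplet.

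The mature sequences show which members share a target seed, and the seed is in capitals. They are RefSeq's, on GRCm38.p6, and 9 of the 9 members matched; of all names in the counts, 1623 of 1915 did. The first 4 carry the miR-17 seed.
miR-17-5p: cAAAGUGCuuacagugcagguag
miR-20a-5p: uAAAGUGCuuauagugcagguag
miR-93-5p: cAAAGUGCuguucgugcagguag
miR-106b-5p: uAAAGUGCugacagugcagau
miR-18a-5p: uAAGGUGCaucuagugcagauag
miR-19a-3p: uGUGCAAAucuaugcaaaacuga
miR-19b-3p: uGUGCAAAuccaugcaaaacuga
miR-17-3p: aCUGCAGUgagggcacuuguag
miR-106b-3p: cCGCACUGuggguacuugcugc

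Positions are counted from 1 at the 5′ end, with the base of the first-named miRNA before the position and that of the second after it. From miR-17-5p to miR-20a-5p the changes are C1U and C12U, both outside the seed. From miR-19a-3p to miR-19b-3p the only change is U11C. Between miR-17-5p and miR-18a-5p there are 6 changes, of which A4G falls in the seed. The 3p arms of mir-17 and mir-106b carry other seeds, so they belong to none of the 3 seed families and are followed as the second arms of their hairpins. In the hairpins that follow, the 2 mature arms are in capitals and show that 5p and 3p of a hairpin are cut from the same precursor.
mir-17: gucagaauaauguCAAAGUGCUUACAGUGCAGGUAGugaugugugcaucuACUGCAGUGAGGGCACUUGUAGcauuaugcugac
mir-106b: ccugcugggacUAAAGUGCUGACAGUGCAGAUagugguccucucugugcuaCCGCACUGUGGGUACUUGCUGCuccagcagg

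The miR-17-92 hairpins lie at chr14:115043671-115044506 on the plus strand of GRCm38, 6 hairpins within 836 bases, in an exon of the long non-coding RNA gene Mir17hg. The miR-106b-25 hairpins lie at chr5:138165321-138165818 on the minus strand, 3 hairpins within 498 bases. They sit in introns of the coding transcripts of Mcm7, a subunit of the replicative DNA helicase, and on its strand. The mir-25 and mir-93 hairpins also overlap an exon of a retained-intron transcript of that gene. The X-linked copy of the cluster, miR-106a-363, lies at chrX:52741693-52742567 on GRCm38 and holds 6 hairpins.

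Library totals ran from 1905838 to 3897109 counts in the 4 high-fat libraries and from 837817 to 2750482 in the 5 control libraries. Levels are given as read counts scaled to a library total of 1000000 (CPM). The counts behind a member's value ran from 22 for miR-17-3p in control library 5, whose 26.3 CPM has a 95% Wilson interval of 17.3 to 39.8, to 7393 for miR-93-5p in high-fat library 2, whose 1897 CPM has an interval of 1854 to 1941. These intervals cover counting error only, since the counts are reads and whether PCR copies were merged is not stated. Dams shared cages within their diet before mating; the labels read here do not record which, and cage is in no test.

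Markers of the secretory epithelium took 48.8% to 51.8% of the counts in high-fat libraries and 46.1% to 51.8% in control libraries, with 8 of 8 names detected in every library. The 5 leukocyte miRNAs, among them miR-223-3p and both arms of miR-142a, were above 0 in every library. They summed to 11418, 77.7, 2874 and 251 CPM in high-fat libraries 1 to 4, against 356 to 762 CPM in control libraries. The 4 red cell miRNAs, 2 of them at 0 in some library, summed to 20.1 to 650 CPM in high-fat libraries, with the highest in library 3, and to 22.7 to 158 in control libraries. Endothelial miRNAs, 2 names with 1 at 0 in some library, summed to 10.5 to 29.1 CPM in high-fat libraries and to 6.43 to 22.0 CPM in control libraries. Stromal miRNAs, 4 names with 1 at 0 in some library, summed to 11658 to 25740 CPM in high-fat libraries and 10358 to 19151 in control libraries. Most of that sum was miR-143-3p, which had 11360 to 25225 CPM in high-fat and 9913 to 18579 CPM in control libraries. miR-199a-3p, also stromal, was at 17.1, 10.01, 284 and 27.8 CPM in high-fat libraries 1 to 4, against 10.7 to 29.8 CPM in control libraries, so high-fat library 3 lay far above the rest. The other stromal names did not share this rise. In high-fat library 3 miR-145a-5p was at 273 CPM, its lowest value in any library, miR-143-3p at 11982 CPM and miR-214-3p at 0.989 CPM. High-fat libraries 1 and 3 therefore stand apart in leukocyte miRNAs, and library 3 also in red cell miRNAs and miR-199a-3p. Values without them are given beside the diet comparison; the part of these cells in any result was not tested.

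The miR-17 seed held most of the members' counts in both diets. Its 4 members took 80.4% ± 4.5 of the counts of the 9 members in high-fat milk fat and 82.3% ± 1.7 in control milk fat (SD, n = 4 and 5 libraries). The 2 miR-19 members took 15.8% ± 5.0 in high-fat and 14.2% ± 1.6 in control libraries. The single miR-18 member took 1.42% ± 0.46 in high-fat and 0.978% ± 0.19 in control libraries. The 2 remaining 3p arms took 2.39% ± 0.43 in high-fat and 2.52% ± 0.34 in control libraries. Together the 9 members made up 0.414% ± 0.089 of a high-fat library and 0.431% ± 0.040 of a control library.

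**Figure D1:**
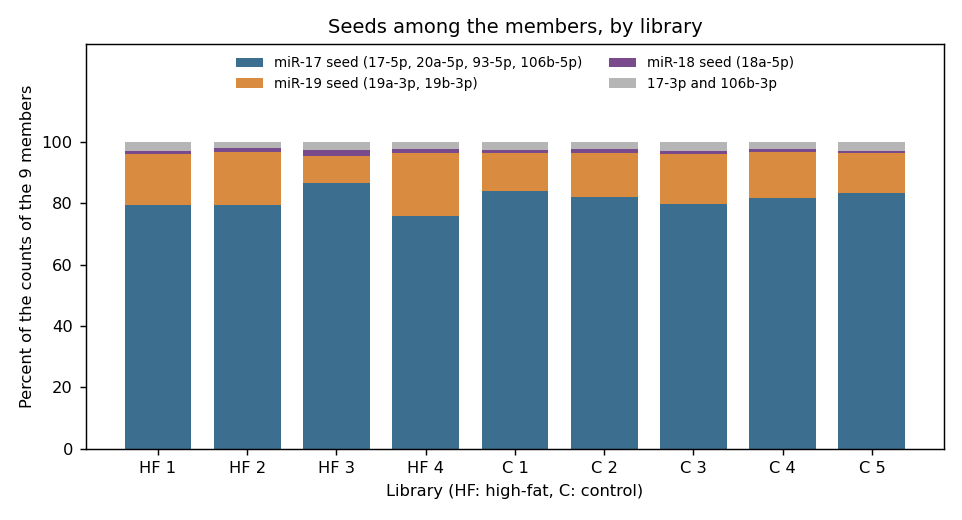
Percent of the counts of the 9 members held by each seed, stacked to 100, with 1 bar per library and high-fat libraries left of control libraries. The miR-17 seed held between 75.9% and 86.7% in every library, and the miR-19 share was lowest in high-fat library 3, at 8.74%.

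Within the miR-17 seed, the Mcm7 cluster gave most of the counts. miR-93-5p held 65.2% ± 1.9 of the seed's counts in high-fat libraries and 64.8% ± 3.5 in control libraries, and miR-106b-5p held 14.3% ± 1.2 in high-fat and 12.7% ± 1.3 in control libraries. From the miR-17-92 transcript, miR-20a-5p held 14.1% ± 0.52 in high-fat and 16.0% ± 3.9 in control libraries, and miR-17-5p 6.40% ± 0.78 in high-fat and 6.41% ± 0.68 in control libraries (SD, n = 4 and 5). The guides miR-93-5p and miR-106b-5p together held 63.9% ± 3.7 of the 9 members' counts in high-fat libraries and 63.8% ± 4.5 in control libraries. miR-17-5p, which gives the seed its name, was the lowest of these 4 in all 9 libraries.

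miR-93-5p, which shares its seed with miR-17-5p and is cut from the Mcm7 transcript, was at 2889, 1897, 1967 and 1921 CPM in high-fat libraries 1 to 4, against 2687, 2634, 2068, 2122 and 2022 CPM in control libraries 1 to 5. High-fat library 1 lay above every other library, and the remaining high-fat libraries lay below all controls. miR-106b-5p, the first guide of the same transcript, was at 580.9, 444.4, 484.5 and 374.6 CPM in high-fat libraries, against 525.4, 519.0, 363.2, 459.5 and 392.7 CPM in control libraries. Its diets overlapped over most of their range. miR-106b-3p, the other arm of that hairpin, was at 138, 57.0, 63.3 and 65.1 CPM in high-fat libraries, against 99.2, 86.8, 101.1, 68.8 and 82.4 CPM in control libraries. In unscaled CPM, as with miR-93-5p, high-fat library 1 was the highest of all 9 and the 3 others were below every control.

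miR-17-5p was at 259.4, 219.6, 207.7 and 159.0 CPM in high-fat libraries, against 202.5, 273.2, 227.6, 205.0 and 225.6 CPM in control libraries. Only high-fat library 4 lay outside the control range, below it. Its passenger arm miR-17-3p was at 23.1, 16.4, 24.7 and 17.3 CPM in high-fat libraries, against 19.6, 24.1, 19.3, 15 and 26.3 CPM in control libraries, and all high-fat values lay inside the control range. miR-20a-5p, the second carrier of the miR-17 seed on this transcript, was at 613.5, 443.4, 414.3 and 405.6 CPM in high-fat libraries, against 409.7, 586.5, 644.3, 500.7 and 667.2 CPM in control libraries. High-fat library 1 was among the high values and the other 3 were near the lowest control.

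miR-18a-5p, the only tested carrier of the miR-18 seed, was at 58.6, 45.9, 74.7 and 48.8 CPM in high-fat libraries, against 48.7, 54.6, 39.3, 43.8 and 26.3 CPM in control libraries. In this unscaled CPM high-fat libraries 1 and 3 lay above all controls and the other 2 did not. The diet test scales high-fat library 1 by a factor of 1.09 and control library 2 by 0.983, so their order need not hold after scaling. miR-19a-3p was at 80.9, 64.7, 45.5 and 55.6 CPM in high-fat libraries, against 48.1, 101.2, 42.9, 51.9 and 38.2 CPM in control libraries, where library 2 was the highest of all 9. miR-19b-3p, its 1-base variant, was at 820.2, 596.6, 264.5 and 719.4 CPM in high-fat libraries, against 501.7, 609.0, 624.6, 557.6 and 478.6 CPM in control libraries. For this member the high-fat libraries held both the highest and the lowest value, the lowest in library 3.

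**Figure D2:**
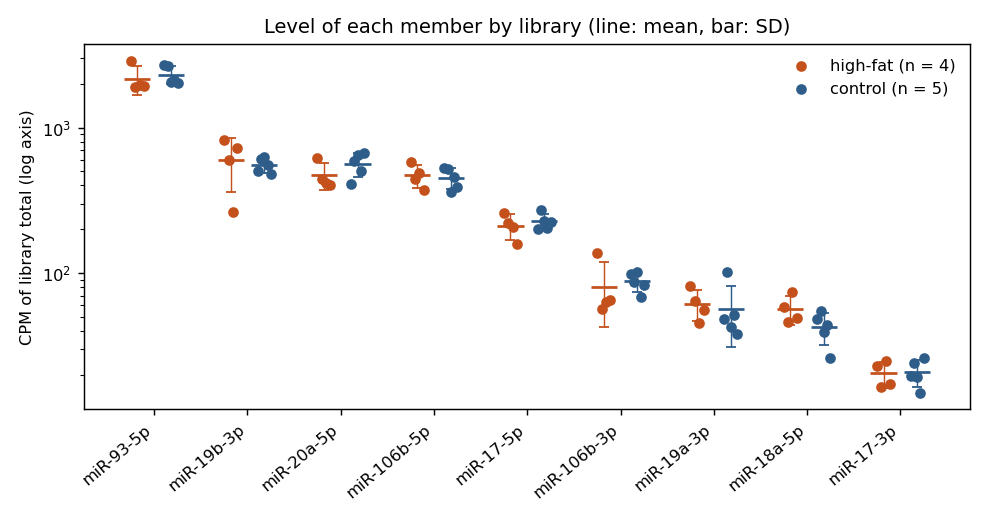
CPM of library total of each member on a log axis, with 1 point per library, high-fat left of control, a line at the mean and a bar for the SD. miR-93-5p has a median of 2068 CPM and miR-17-3p of 19.6 CPM, and the diets overlap for each of the 9 members.

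By median CPM over the 9 libraries the order was miR-93-5p, miR-19b-3p, miR-20a-5p, miR-106b-5p, miR-17-5p, miR-106b-3p, miR-19a-3p, miR-18a-5p and miR-17-3p, from 2068 down to 19.6 CPM. Among the 312 tested names these levels ranked from 44 for miR-93-5p to 220 for miR-17-3p. Neighbours in this order were compared within libraries by an exact two-sided sign-flip permutation test, adjusted by Benjamini-Hochberg over the 8 pairs, whose smallest possible p is 0.00391. miR-93-5p exceeded miR-19b-3p 4.02-fold (exact test, adjusted p = 0.0104, higher in 9 of 9 libraries). miR-106b-5p exceeded miR-17-5p 2.09-fold and miR-17-5p exceeded miR-106b-3p 2.66-fold, both with an adjusted p of 0.0104 in the exact test and in 9 of 9 libraries. miR-18a-5p exceeded miR-17-3p 2.31-fold (exact test, adjusted p = 0.0156, higher in 8 of 9 libraries), with 22 counts for each in control library 5.

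In 3 neighbouring pairs the members did not differ beyond their spread. miR-19b-3p over miR-20a-5p was 1.08-fold (exact test, adjusted p = 0.480, higher in 6 of 9 libraries), miR-20a-5p over miR-106b-5p was 1.12-fold (exact test, adjusted p = 0.321, 6 of 9), and miR-19a-3p over miR-18a-5p was 1.18-fold (exact test, adjusted p = 0.193, 7 of 9). Without high-fat library 3 the last pair passed, with an adjusted p of 0.025 in the exact test. miR-106b-3p over miR-19a-3p was 1.45-fold (exact test, adjusted p = 0.0313, 7 of 9), but this call was lost when any library other than high-fat library 2 or control library 2 was left out, with adjusted p from 0.05 to 0.0625. The members are 21 to 23 bases long, so no length scaling was applied, and how evenly the kit ligates different sequences was not tested.

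By median, levels did not fall or climb steadily along either transcript. On the miR-17-92 transcript the guides in order of position, miR-17-5p, miR-18a-5p, miR-19a-3p, miR-20a-5p and miR-19b-3p, had median levels of 219.6, 48.7, 51.9, 500.7 and 596.6 CPM. The second and the third guide were the lowest and the last members the highest. miR-92a-3p, which ends the transcript and carries another seed, was higher still at a median of 4906 CPM. Both miR-92a-3p and miR-19b-3p also have a hairpin on the X chromosome, so their levels may not come from this transcript alone. On the shorter Mcm7 cluster the medians were 459.5 CPM for miR-106b-5p, 2068 for miR-93-5p and 1925 for miR-25-3p. The last 2 overlapped, with ranges of 1897 to 2889 CPM for miR-93-5p and 1285 to 2825 CPM for miR-25-3p. miR-25-3p was the higher in high-fat library 4 and control libraries 3 and 5, where levels climbed steadily, and the lower in the rest.

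**Figure D3:**
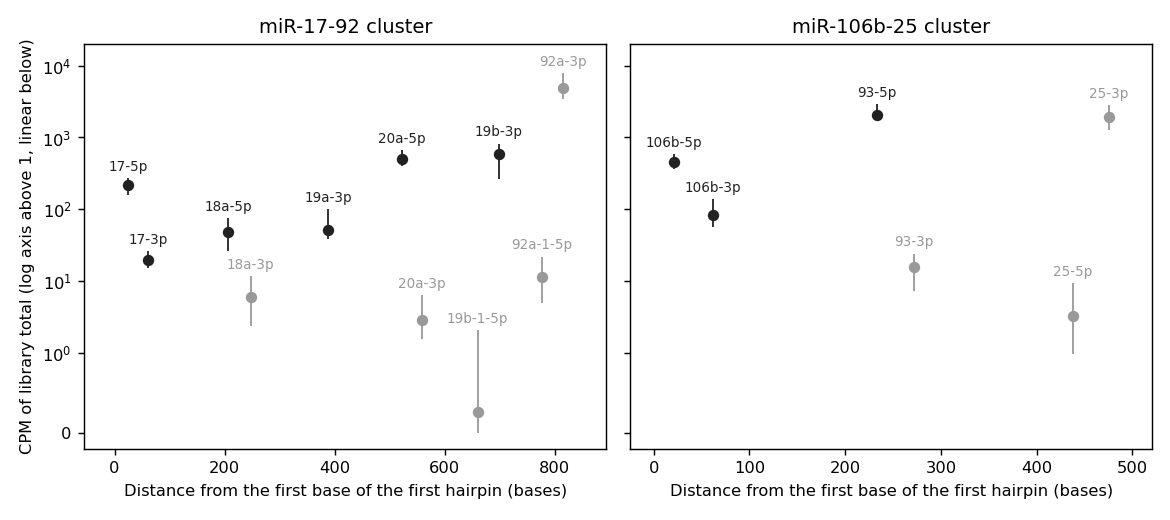
Median CPM over the 9 libraries of each mature arm against its distance in bases from the first base of the first hairpin, with the range over libraries as a line, for the miR-17-92 cluster and the miR-106b-25 cluster; members are black and other arms of the same hairpins grey. Guides cut from the same transcript differ widely, from a median of 48.7 CPM for miR-18a-5p to 500.7 CPM for miR-20a-5p. The 4906 CPM of miR-92a-3p and the level of miR-19b-3p may include reads from their hairpins on the X chromosome.

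Ratios between members were taken within each library, so that they need no scaling. miR-20a-5p was above miR-17-5p in 9 of 9 libraries, by 2.34-fold as a geometric mean and 1.99-fold to 2.95-fold across libraries. miR-93-5p was 4.87-fold above miR-106b-5p (4.06-fold to 5.69-fold) and 10.2-fold above miR-17-5p (8.63-fold to 13.3-fold). The 2 miR-19 members, which differ by the single base U11C, stood 9.79-fold apart in favour of miR-19b-3p, between 5.79-fold and 14.5-fold.

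The 2 arms of each hairpin had unequal read counts. miR-17-5p was 10.6-fold above miR-17-3p, between 8.33-fold and 13.4-fold, and miR-106b-5p was 5.57-fold above miR-106b-3p, between 3.59-fold and 7.79-fold. By diet the log2 ratio of miR-17-5p to miR-17-3p was 3.36 ± 0.30 in high-fat libraries and 3.44 ± 0.25 in control libraries. That of miR-106b-5p to miR-106b-3p was 2.62 ± 0.42 in high-fat libraries and 2.36 ± 0.34 in control libraries (SD, n = 4 and 5). The 5p arm was the higher one in all 9 libraries for both hairpins.

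No member passed the test of diet. limma-voom called 0 of the 312 tested names at an adjusted p below 0.05, which is 0% of them, and 0 of the 9 members. Unadjusted, 32 names or 10.3% had a p below 0.05 and no member did. The diets did not overlap in CPM for 13 names, 4.17%, and for no member. limma-trend called 2 names, neither a member.

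Each fold change below divides high-fat by control and is a log2 value with its standard error, taken from the fit over all names. Of the miR-17 seed, miR-93-5p had -0.10 ± 0.15 (95% interval -0.44 to 0.24, limma adjusted p = 0.830), miR-17-5p -0.10 ± 0.17 (-0.47 to 0.27, 0.835), miR-20a-5p -0.25 ± 0.18 (-0.65 to 0.15, 0.650) and miR-106b-5p 0.06 ± 0.17 (-0.31 to 0.43, 0.885). miR-18a-5p had the highest value, 0.39 ± 0.24, with an interval of -0.15 to 0.93 (limma adjusted p = 0.650). It was 0.22 ± 0.30 without high-fat libraries 1 and 3, where its unscaled CPM lay above all controls (limma adjusted p = 0.761). Without high-fat library 3 alone it was 0.26 ± 0.24 (limma adjusted p = 0.723). miR-19a-3p had 0.23 ± 0.28 (-0.38 to 0.85, limma adjusted p = 0.748) and miR-19b-3p 0.00 ± 0.29 (-0.63 to 0.64, 0.993). Of the 3p arms, miR-106b-3p had -0.22 ± 0.25 (-0.79 to 0.34, limma adjusted p = 0.736) and miR-17-3p -0.01 ± 0.26 (-0.58 to 0.56, 0.993). The intervals leave room for changes of either sign, so they do not show that the diets are alike.

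**Figure D4:**
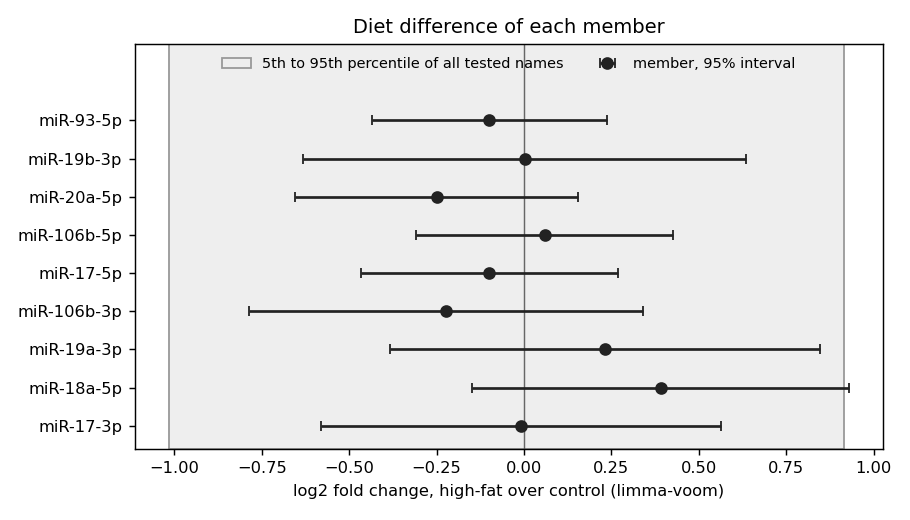
log2 fold change of each member, high-fat over control, as a point with its 95% interval from limma-voom, and the 5th to 95th percentile of the fold changes of all 312 tested names shaded, -1.02 to 0.91. Each interval crosses 0 and the 9 points lie between -0.25 and 0.39.

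As a group, 4 of the 9 fold changes were above 0, against 158 of 312 over all tested names, and the median was -0.01 against 0.00. The within-diet SD of log2 CPM had a median of 0.29 over the members and 0.44 over all tested names. The names were not matched for level, and the part of level in this contrast was not tested. With high-fat libraries 1 and 3, the pair with the high leukocyte sums, left out, the members' log2 fold changes ran from -0.50 for miR-106b-3p to 0.29 for miR-19b-3p and 0 of 9 were called (limma adjusted p from 0.339 to 0.884). Without high-fat library 1 alone, miR-106b-3p had -0.47 ± 0.20 (limma adjusted p = 0.329) and miR-93-5p -0.19 ± 0.15 (0.593). miR-19b-3p was at -0.18 when high-fat library 4 was left out and at 0.34 when library 3 of that diet was.

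Shifts between members were tested by an exact two-sided permutation of the diets over libraries, for 9 log2 ratios with Benjamini-Hochberg adjustment. With 4 against 5 libraries this exact test cannot go below p = 0.0159. A single ratio at that floor would not pass after adjustment over the 9, so a shift in it alone could not be called. None passed, which does not show that the ratios are alike in the diets. The ratio of miR-18a-5p to miR-17-5p came nearest, at -2.14, -2.25, -1.47 and -1.70 in high-fat libraries against -2.05, -2.31, -2.53, -2.22 and -3.07 in control libraries. High-fat libraries 3 and 4 lay above all controls and the others among them, and the means differed by 0.55 (exact permutation p = 0.0952, adjusted p = 0.571). For miR-93-5p to miR-106b-5p the log2 ratio was 2.20 ± 0.16 in high-fat libraries and 2.35 ± 0.11 in control libraries (exact permutation p = 0.127, adjusted p = 0.571).

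For miR-20a-5p to miR-17-5p the log2 ratio was 1.15 ± 0.17 in high-fat libraries and 1.29 ± 0.24 in control libraries (exact permutation p = 0.302, adjusted p = 0.571). The ratio of miR-19b-3p to miR-17-5p was the most uneven among high-fat libraries, at 1.66, 1.44, 0.35 and 2.18, against 1.08 to 1.46 in control libraries. High-fat library 3 was the lowest and high-fat library 4 the highest of all 9, and the means differed by 0.12 (exact permutation p = 0.778, adjusted p = 0.875). That difference was 0.52 without high-fat libraries 1 and 3 and 0.47 without library 3 alone (exact permutation, adjusted p = 0.643 for each), and -0.14 without library 4 (adjusted p = 0.821 in the exact test). Without libraries 1 and 3 the exact test cannot go below p = 0.0952, so no ratio could pass there. The difference for miR-93-5p to miR-17-5p, the same seed on different transcripts, was 0.01 (exact permutation p = 0.905, adjusted p = 0.905). Differences for the remaining 4 ratios lay between -0.18 and 0.30, with adjusted p from 0.571 to 0.837 in the exact test.

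**Figure D5:**
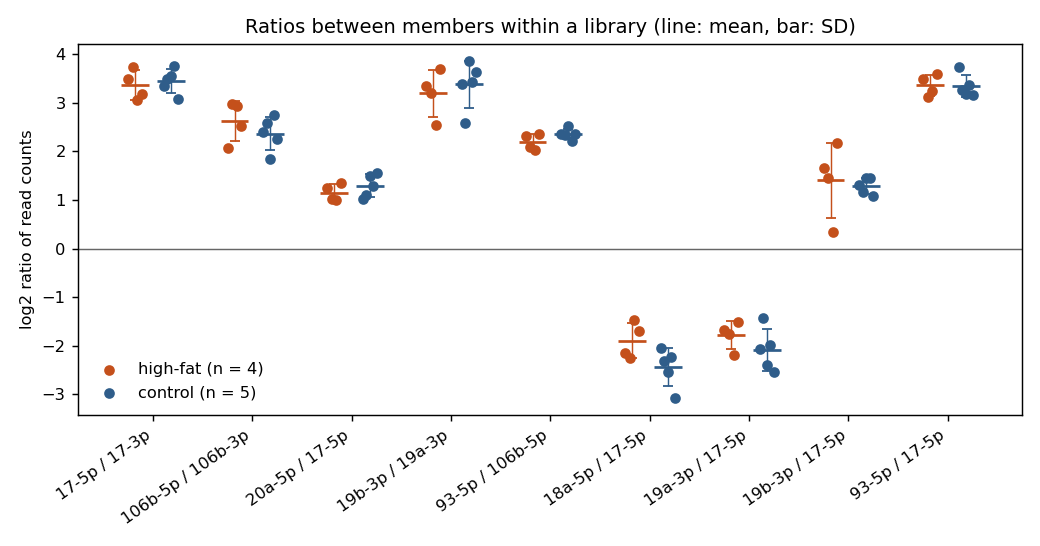
log2 ratio of read counts between members within a library for the 9 ratios, with 1 point per library, high-fat left of control, a line at the mean and a bar for the SD. The diets overlap in each ratio, and the spread of miR-19b-3p to miR-17-5p is widest in high-fat libraries, from 0.35 to 2.18.

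Members that share a transcript were then compared in their variation over the 9 libraries, on log2 CPM with an exact permutation test of pairings and Benjamini-Hochberg adjustment over 4 pairs. miR-93-5p and miR-106b-5p had a Pearson r of 0.73 (exact p = 0.0242) and a Spearman rho of 0.73 (exact p = 0.0311), with adjusted p of 0.0884 and 0.0865. miR-17-5p and miR-20a-5p had r = 0.66 (exact p = 0.0442) and rho = 0.70 (exact p = 0.0433), with the same adjusted values. Neither passed after adjustment. Without the 2 libraries farthest from the median of the first member, r was 0.52 and 0.68.

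miR-19a-3p and miR-19b-3p had r = 0.47 (exact p = 0.203, adjusted p = 0.255) and rho = 0.58 (exact p = 0.108, adjusted p = 0.144), and r = 0.41 without the 2 farthest libraries. miR-17-5p and miR-93-5p, which share a seed but no transcript, had r = 0.45 (exact p = 0.255, adjusted p = 0.255) and rho = 0.43 (exact p = 0.250, adjusted p = 0.250). Without the 2 farthest libraries that r was -0.14, so it rests on those libraries. No diet has the 6 libraries that a correlation within it would need. All values of a library share its total, so these points share depth and scaling.

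Of the 7 carriers of the 3 seeds, 1 had another carrier as its nearest name in variation over the libraries. The tested name with the highest Pearson r over the 9 libraries, out of 311 others, was miR-106b-5p for miR-93-5p (0.73), miR-450a-5p for miR-106b-5p (0.86), miR-93-3p for miR-17-5p (0.75) and miR-2137 for miR-20a-5p (0.82). For miR-18a-5p it was miR-29b-3p (0.92), for miR-19a-3p miR-101c (0.84) and for miR-19b-3p miR-28a-3p (0.93). Over these 7, another carrier ranked at a median of 87 of 311, and 4 of 42 ordered pairs placed it in the top 10. A name placed at random has 10 chances in 311 of a top 10 place, and the middle of the list lies farther down than 87. The 42 ordered pairs count each of 21 correlations from both sides, and their r ran from -0.58 to 0.73. Names that share depth and scaling are not placed at random, so no conclusion is drawn, and no test was run on these ranks. These likenesses are the highest of many over 9 points and are given as a description.

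The other arms of the same transcripts were not called by diet either. Of 6 further arms of the miR-17-92 hairpins 5 were detected and 3 tested, with log2 fold changes, high-fat over control, of -0.23 ± 0.54 for miR-18a-3p, -0.12 ± 0.48 for miR-92a-1-5p and 0.00 ± 0.25 for miR-92a-3p, and limma adjusted p from 0.873 to 0.993. Of 3 further arms of the miR-106b-25 hairpins 2 were tested, miR-25-3p with -0.27 ± 0.24 and miR-93-3p with 0.16 ± 0.41 (limma adjusted p = 0.697 and 0.885). miR-92a-3p averaged 5074 ± 1400 CPM in high-fat libraries and 5205 ± 1711 CPM in control libraries, and miR-25-3p, which has the same seed, 1791 ± 563 CPM in high-fat libraries and 2150 ± 610 CPM in control libraries (SD, n = 4 and 5). miR-92a-3p has the same mature sequence in a second hairpin on the X chromosome. Its 2 rows differed by up to 1708 counts in a library and the higher was kept, so its level was not divided between the loci.

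The X-linked copy of the cluster had few counts. Its 10 listed names that are not shared with another hairpin held 26 counts over the 9 libraries, at most 7 in any library, and 0 passed the filter. They include near-identical carriers of the same seeds, printed with the seed in capitals to show how little sets them apart from the abundant members.
miR-106a-5p: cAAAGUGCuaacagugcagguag
miR-20b-5p: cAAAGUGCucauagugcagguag
miR-18b-5p: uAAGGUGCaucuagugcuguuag

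From miR-17-5p to miR-106a-5p the only change is U10A, and the counts over all libraries were 6 for miR-106a-5p and 4009 for miR-17-5p. miR-20b-5p held 11 counts and miR-18b-5p, at A18U and A20U from miR-18a-5p, held 3 counts against 910. A further name with the miR-17 seed and 2 with the seed of miR-17-3p had 0 counts in every library, and a count of 0 allows up to 3. miR-19b-3p is cut from hairpins on chromosome 14 and on chromosome X with the same mature sequence, and its 2 rows differed by at most 6 counts in any library. Its level can therefore not be divided between the 2 loci by these counts.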

How the data were processed

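Per the labels' protocols, total RNA of washed milk fat went into NEXTflex libraries read on a HiSeq2500. The submitters' processing notes name cutadapt 1.9.1 and the build GRCm38. Aligner, counter and use of the kit's random adapter bases: not given in the sources used here. Counts were therefore taken as reads. The authors deposited raw read counts of known miRNAs, 2059 rows of precursor and mature name. Because 833 cells carry comma separators, the column unit was recorded as other, and count models were not used. The commas were removed before use, so this was a choice of procedure and not a limit of the counts.

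The highest row of a name was kept in each library, giving 1915 names. Names with 10 counts scaled to the median library (5.25 CPM) in at least 4 libraries and 15 in total were tested, 312 in all. Trimmed mean of M values factors (30% and 5% trimmed) were written out in R 4.3.3, and limma 3.58.1 (limma-voom, diet as the only term) gave two-sided tests adjusted by Benjamini-Hochberg over all 312. A call is an adjusted p below 0.05. The fit was also run on simulated counts in which every name had the same spread beyond counting error, unlike these data. No result here rests on that run. Ratios, the order of levels and correlations used exact permutation tests over libraries, with 0.5 added to each count in ratios (scipy 1.17.1, numpy 2.4.6). Printed CPM use the unscaled library total. Dams are the replicates. Libraries of a diet differed beyond counting error, as the smallest chi-square over degrees of freedom between any pair was 50.2. That check does not test whether the libraries come from different dams.

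The members and lists were chosen with earlier results of these data known. All members are named; further arms of the clusters if tested, other names with a member's seed if detected, and for each seed carrier the name most like it. Mature and hairpin sequences and positions are from RefSeq (GRCm38.p6) and gene models from GENCODE vM21. Alternatives covered scaling, filtering, weighting, row summing, a replicate block and leaving out libraries.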

Additional observations from a re-analysis of the deposited data

Results flagged for a closer look

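The CPM of each member and each of the 9 ratios were searched in each diet for a lone library whose gap to the nearest other fills most of the range of its diet. Of 36 groups searched 3 stood out, where chance gives about 1 in 20, or 1.8. In high-fat library 1 miR-93-5p was at 2889 CPM, with the nearest other high-fat library at 1967. In the same library miR-106b-3p was at 138 CPM, with the nearest other at 65.1. Both come from the Mcm7 cluster, and this is the library whose leukocyte miRNAs summed to 11418 CPM; the part of those cells was not tested. In control library 2 miR-19a-3p was at 101 CPM, with the nearest other control at 51.9. Without that library the log2 fold change of miR-19a-3p, high-fat over control, was 0.44 ± 0.23, against 0.23 ± 0.28 with it (limma adjusted p = 0.565 and 0.748).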

How the results depend on the processing

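No member was called under any of the 18 alternatives run on it (162 fits, limma adjusted p from 0.329 to 0.999), and no ratio was (126 tests, adjusted p from 0.429 to 1). Some ratio outcomes were fixed beforehand. The exact test cannot go below p = 0.0952 without high-fat libraries 1 and 3, or below 0.125 with the replicate block. With 1 library left out its floor was 0.0286 or 0.0357, so a single ratio could not pass after adjustment. The count of called names, 0 in the main test, was 4 with no filter on low counts, 2 with limma-trend, 2 with quality weights and 3 with the replicate block; it was 0 to 4 when 1 library was left out, with 4 only without control library 5, and none of these was a member. With no filter the median log2 fold change of all names moved to -0.21. Same-numbered libraries did not deviate together (correlations 0.06, -0.08, 0.20 and -0.16), so the numbers were not taken as pairs. Such correlations cannot exclude that some dams or libraries were handled together, which was not tested. Signs turned for values near 0. miR-17-3p was 0.015 with quality weights and 0.061 with the replicate block, and -0.10 to 0.057 with 1 library left out. miR-19b-3p was -0.012 with median-of-ratios factors, -0.014 with a filter of 10 CPM, -0.041 with rows summed and -0.038 with the replicate block, and -0.18 to 0.34 with 1 library left out. miR-106b-5p was -0.080 without high-fat libraries 1 and 3, and -0.010 to 0.12 with 1 library left out. Of the ratio differences, miR-17-5p to miR-17-3p was 0.015 and miR-19b-3p to miR-19a-3p 0.073 without high-fat libraries 1 and 3, and miR-93-5p to miR-17-5p was -0.032 with the replicate block. With 1 library left out these ran from -0.20 to 0.022, from -0.38 to 0.037 and from -0.066 to 0.11, and miR-19b-3p to miR-17-5p from -0.14 to 0.47. Of the levels, miR-19b-3p over miR-20a-5p was 1.11 on the log2 scale with rows summed and then passed (exact test, adjusted p = 0.00781), since summing adds its 2 rows. With 1 library left out, miR-106b-3p over miR-19a-3p ran from 0.45 to 0.63 and lost its call in 7 of 9, and miR-19a-3p over miR-18a-5p ran from 0.16 to 0.36 and passed in 1. The cause of the other changes was not tested. Leaving out single libraries in the correlations was added after the data were seen; none of the 44 correlations under alternatives passed after adjustment (exact test, adjusted p from 0.0529 to 0.701). Depth limits miR-17-3p and miR-18a-5p most, with 22 counts each in control library 5.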
